A study of Mus musculus with 12 samples.

Results

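The germline, meiosis and piRNA genes described here are 42 genes listed by name from the germ cell specification, piRNA and meiosis pathways. All 42 had a row among the 24015 gene rows of the count files. Of these, 40 reached a mean of at least 0.5 CPM (the usual depth-scaled count unit, here with TMM-scaled library sizes) in at least 1 group of libraries and are described. The other 2, Figla and Nobox, oocyte transcription factors, reached 0.418 and 0.426 CPM in their highest group. The lowest genes kept were Nanos3 at 0.786, Asz1 at 0.843 and Tdrd6 at 0.888 CPM. Among the 40, only Tdrd6 did not pass the low-count filter, so 39 were tested.

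RNA was sequenced from mouse embryoid bodies, aggregates that embryonic stem cells form when they differentiate in suspension, in 12 libraries: 3 each of control and Trim33-deficient bodies on day 2 and on day 2.5. The labels describe stem cell lines derived from outbred embryos homozygous for a floxed Trim33 allele that carried UbcCreERT2, a Cre recombinase driven by a ubiquitin promoter and switched on by tamoxifen, and they had been kept without feeders in LIF and 2i. The growth protocol gives this genotype for all lines, while the sample labels call the controls wildtype, and whether controls received 4OH-Tamoxifen is not given in the sources used here. Addition of 4OH-Tamoxifen on day 1 started the loss of Trim33. The promoter is not specific to a cell type, so the deletion was not directed to germ cells. The labels mention 3 independent pairs but not which libraries form a pair, so p-values measure the spread between libraries. Trim33, a chromatin reader and SMAD partner, lay between 239 and 277 CPM in the control libraries and between 54.4 and 69.6 CPM in the Trim33-deficient ones, and the groups did not overlap. Gene counts per library ran from 10066338 to 16529627.

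Germ cells arise from the epiblast under the control of Prdm1 and its partners, and then rely on RNA-binding proteins such as Nanos3, Dnd1, Dazl and Ddx4. The piRNA pathway loads small RNAs into PIWI proteins, which with Tudor-domain scaffolds silence transposons in the germline. In meiosis, cohesins with germline subunits, axis proteins and the synaptonemal complex hold and pair chromosomes. Many genes of these pathways have CpG-rich promoters that are silenced by DNA methylation and by a Polycomb complex with MGA, MAX and E2F6 in somatic cells, and a number of them are transcribed at a low level in naive embryonic stem cells.

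Most of these genes were measurable in the bodies. Of the 40, 26 had a highest group mean of at least 10 CPM, 11 lay between 1 and 10 CPM, and 3 were under 1 CPM. Dividing by kilobases of annotated exon allows a rough comparison of genes. On that scale the highest levels in day 2 control bodies were those of Tex19.1 (80.2 CPM per kilobase), Syce2 (54.7) and Rpl10l (45.4). Sycp3 stood at 20, Mael at 19.3, Fkbp6 at 17.1 and Ddx4 at 16.4 CPM per kilobase, and the lowest gene was Tdrd6 at 0.0671. Rpl10l resembles Rpl10, and Sycp3 shares exon bases with Chpt1 on the opposite strand, so their levels are less certain. In total counts the 40 genes summed to 855 to 902 CPM in day 2 control, 847 to 885 in day 2 Trim33-deficient, 651 to 674 in day 2.5 control and 926 to 964 CPM in day 2.5 Trim33-deficient libraries. Much of that sum was Tex19.1: without it the ranges were 700 to 792, 629 to 662, 551 to 614 and 599 to 653 CPM, so the day 2.5 groups then lay closer together and overlapped. Being bulk measurements, these levels cannot tell fewer expressing cells from less RNA per cell. Of 14 markers of finished gametes, the zona gene Zp3 carried most of the sum of 2.22 to 13.2 CPM: it lay between 1.87 and 12 CPM, and the other 13 summed to 0.355 to 1.62 CPM.

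**Figure D1:**
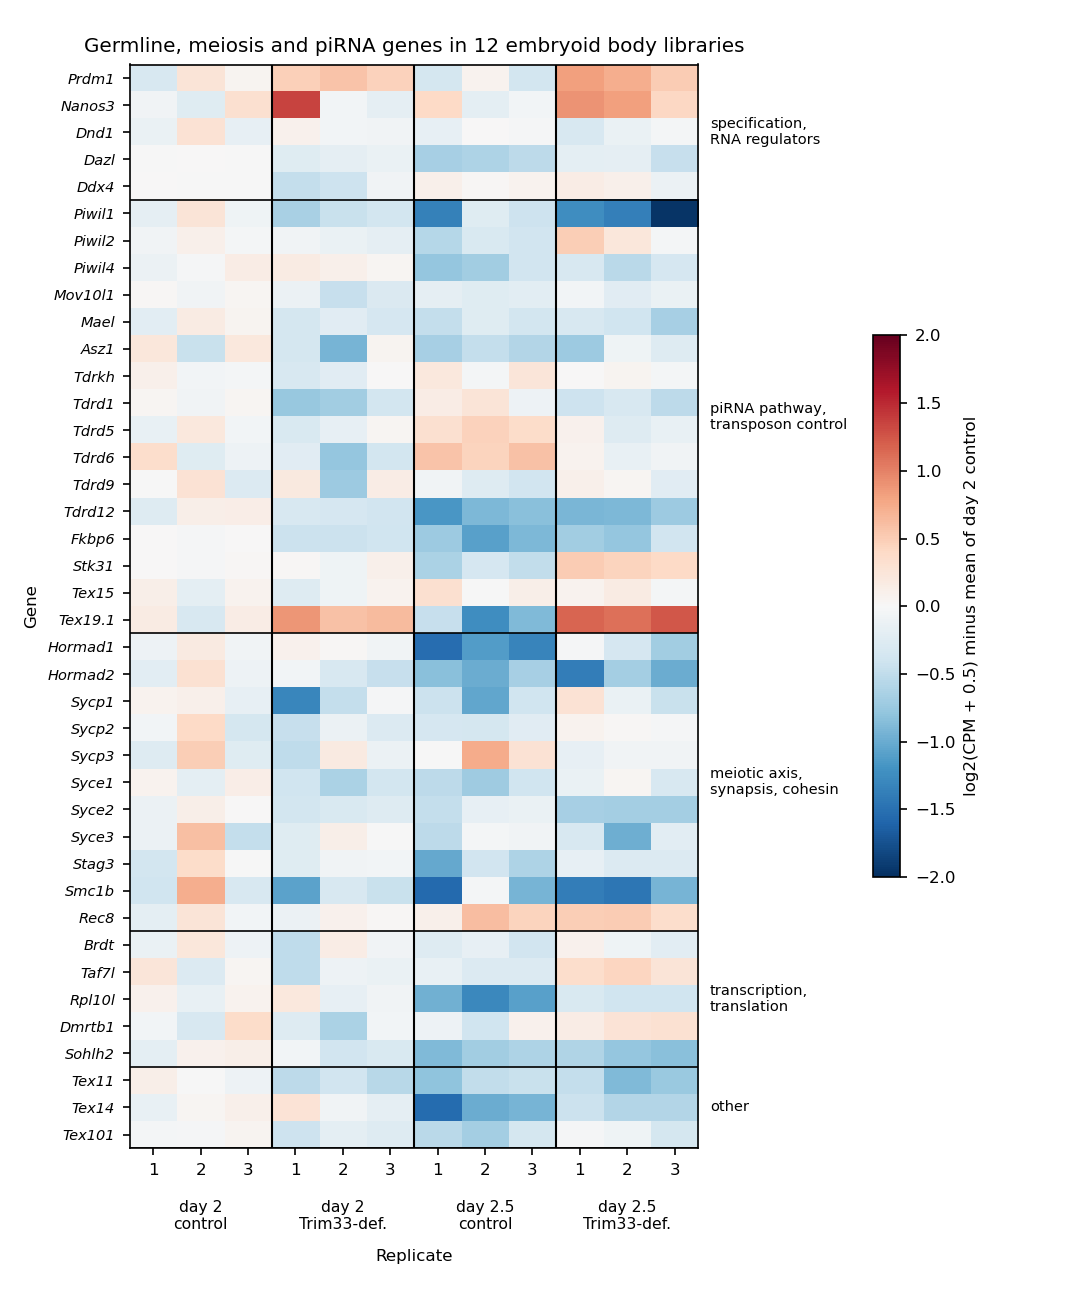
Level of each of the 40 genes (rows, by role) in each of the 12 libraries (columns, by group and replicate), as log2(CPM + 0.5) minus the mean of the 3 day 2 control libraries. Tex19.1, Prdm1 and Stk31 are red in the day 2.5 Trim33-deficient libraries, while Hormad1, Tex14, Rpl10l and Fkbp6 are blue in the day 2.5 control libraries.

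Promoter sequence was not used to choose the genes. Of the 40 genes, 35 had a promoter in the RefSeq table (GRCm38.p6, 300 bases, from 250 before to 50 after the start). Where a gene had several, only the first was counted. The E-box CACGTG, a palindrome that MGA and MAX bind, stood in 14 of the 35 (40%), against 7.24% of 27025 promoters in the table, 10.3% of those of tested genes and 11.5% of those with at least 15 CG dinucleotides. The E2F motif TTCCCGC, on either strand, stood in 8 of 35 (22.9%), against 4.66%, 8.56% and 10.4%. The median number of CG dinucleotides was 19 in these genes, 7 over the table and 21 over tested genes. Of the 27 germline promoters with at least 15 CG, 13 (48.1%) held the E-box and 7 (25.9%) the E2F motif. These matches describe letters, not bound sites.

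**Figure D2:**
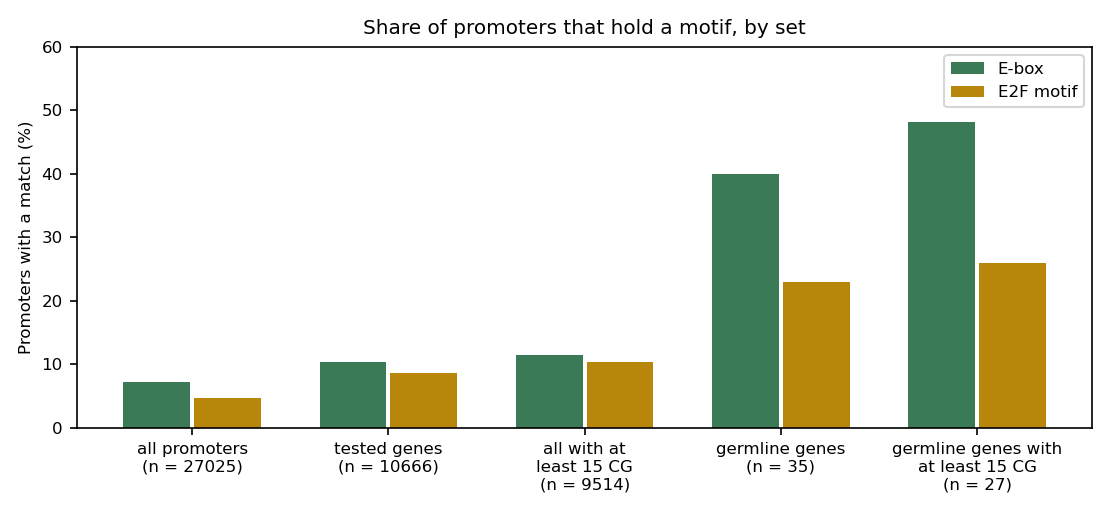
Share of promoters (percent, bars from 0) that hold the E-box or the E2F motif in all promoters of the table, in those of tested genes, in those with at least 15 CG dinucleotides, in the germline genes and in the germline genes with at least 15 CG. The germline bars (40% and 22.9%) stand above the bars of the tested genes (10.3% and 8.56%).

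The sequences below are those of 6 genes that the results turn on: 4 genes with an E-box whose response to Trim33 loss differed between the days, Tex19.1 as the gene with the largest change, and Tdrd1, which was lower on both days. Letters are in lower case, 5′ to 3′ on the gene's strand, with E-boxes and E2F motifs (GCGGGAA on the other strand) in capitals. Hormad1 lies at chr3:95559427-95559726 (plus strand), Fkbp6 at chr5:135349995-135350294 (minus), Stk31 at chr6:49395289-49395588 (plus), Taf7l at chrX:134476441-134476740 (minus), Tex19.1 at chr11:121145893-121146192 (plus) and Tdrd1 at chr19:56825959-56826258 (plus).
Hormad1: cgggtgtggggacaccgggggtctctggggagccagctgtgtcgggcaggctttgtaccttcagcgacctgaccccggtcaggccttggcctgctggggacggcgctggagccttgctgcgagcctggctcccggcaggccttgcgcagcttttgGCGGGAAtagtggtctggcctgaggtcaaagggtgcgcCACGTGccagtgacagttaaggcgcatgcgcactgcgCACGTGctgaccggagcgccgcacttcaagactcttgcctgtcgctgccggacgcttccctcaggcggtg
Fkbp6: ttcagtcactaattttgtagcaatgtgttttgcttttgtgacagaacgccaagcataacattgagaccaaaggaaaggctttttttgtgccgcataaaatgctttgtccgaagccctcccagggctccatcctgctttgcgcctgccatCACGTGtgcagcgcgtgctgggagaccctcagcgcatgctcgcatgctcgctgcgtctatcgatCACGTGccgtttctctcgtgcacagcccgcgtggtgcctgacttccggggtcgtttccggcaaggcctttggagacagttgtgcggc
Stk31: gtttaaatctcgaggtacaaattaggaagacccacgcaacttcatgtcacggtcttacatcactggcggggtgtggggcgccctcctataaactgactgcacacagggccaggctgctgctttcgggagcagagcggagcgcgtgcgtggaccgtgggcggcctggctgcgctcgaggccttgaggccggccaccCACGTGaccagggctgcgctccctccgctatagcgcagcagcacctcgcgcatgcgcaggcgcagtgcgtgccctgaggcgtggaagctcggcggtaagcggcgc
Taf7l: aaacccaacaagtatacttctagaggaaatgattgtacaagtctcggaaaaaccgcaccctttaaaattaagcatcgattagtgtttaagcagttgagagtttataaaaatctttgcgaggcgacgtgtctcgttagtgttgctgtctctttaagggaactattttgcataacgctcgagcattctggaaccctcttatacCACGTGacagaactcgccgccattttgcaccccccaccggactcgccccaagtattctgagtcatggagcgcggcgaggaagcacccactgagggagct
Tex19.1: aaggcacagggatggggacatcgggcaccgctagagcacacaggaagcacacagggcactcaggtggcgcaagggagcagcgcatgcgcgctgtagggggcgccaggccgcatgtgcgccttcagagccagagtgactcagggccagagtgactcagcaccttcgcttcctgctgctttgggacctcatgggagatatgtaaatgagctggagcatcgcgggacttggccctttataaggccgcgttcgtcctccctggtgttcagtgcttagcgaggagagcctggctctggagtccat
Tdrd1: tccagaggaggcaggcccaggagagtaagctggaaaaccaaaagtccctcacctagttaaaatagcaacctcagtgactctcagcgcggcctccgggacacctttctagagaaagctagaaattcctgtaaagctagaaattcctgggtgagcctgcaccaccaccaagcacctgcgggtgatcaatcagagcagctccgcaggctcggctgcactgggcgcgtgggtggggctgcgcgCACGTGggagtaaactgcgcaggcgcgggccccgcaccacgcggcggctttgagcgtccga
Hormad1 holds 2 E-boxes and 1 E2F motif, Fkbp6 holds 2 E-boxes, and Stk31, Taf7l and Tdrd1 hold 1 each. In this window Tex19.1 has neither string of letters. Of the genes with an E-box in the first promoter of the table, Hormad1, Fkbp6, Stk31 and Taf7l rose on day 2.5, Piwil1 and Tdrd1 fell, and the others did not pass. Syce2, which also fell, held 1 E-box and 1 E2F motif in its second promoter but none in its first. Among genes whose response differed between the days, 4 of 8 first promoters held the E-box, and among the remaining germline genes 10 of 27.

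On day 2, 1 day after induction, more of these genes were lower than higher in Trim33-deficient bodies. Of 39 tested, 7 fell, 2 rose and 30 did not pass (adjusted p under 0.05, edgeR quasi-likelihood test). Over all 14356 tested genes 9.84% passed: 3.90% fell and 5.94% rose. The corresponding shares were 17.9% and 5.13% of the germline genes. The fitted log2 fold change was negative for 33 of the 39, and its median was -0.19, against -0.00491 over all tested genes. The genes that fell were Tdrd1, Tdrd12, Mov10l1 and Fkbp6 of the piRNA pathway, Syce1 and Syce2 of the synaptonemal complex, and Tex11, an X-linked protein of meiotic recombination. The genes that rose were Tex19.1 and Prdm1. The 3 control and 3 Trim33-deficient libraries did not overlap for 12 genes that were lower and 2 that were higher, where 14.5% and 14.9% of all tested genes did so.

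Most of these day 2 calls were lost when 1 library was left out, while every fold change kept its sign. For Fkbp6 it stayed between -0.44 and -0.42 and for Tex11 between -0.58 and -0.45 over all alternatives. It moved more for Mov10l1 (-0.41 to -0.21), Prdm1 (0.35 to 0.66) and Tex19.1 (0.46 to 0.77). Calls over all genes also became fewer: without day 2 control replicate 3, 1.12% of tested genes fell and 2.74% rose. Among the germline genes, the number that fell was 1 when either day 2 control replicate 3 or Trim33-deficient replicate 2 was left out, and was 2 without Trim33-deficient replicate 1, and 4 when control replicate 2 or else Trim33-deficient replicate 3 was removed. The number that rose was 0 without control replicate 1 or 3 or any day 2 Trim33-deficient library, or without day 2.5 Trim33-deficient replicate 2, and 1 without day 2 control replicate 2, day 2.5 control replicate 3 or day 2.5 Trim33-deficient replicate 1 or 3. Only Tdrd1 kept its call under all 21 alternatives run on it. Without the 3 libraries that stood apart, 4 fell and 2 rose, where 4.73% and 6.45% of all tested genes did so. Those libraries include day 2 Trim33-deficient replicate 1 and day 2.5 control replicate 2. In these the ribosomal RNA precursor Rn45s took 7.87 and 11.9% of gene counts, against 0.609 to 1.67% in the others. The third is day 2 control replicate 2, in which 26 hypoxia and glycolysis genes summed to 12600 CPM against 8290 to 11600 CPM.

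On day 2.5 more of these genes were higher than lower. Of 39 tested, 11 rose, 4 fell and 24 did not pass. That is 28.2% and 10.3% of the germline genes, where 42.8% of all tested genes passed, 22.0% up and 20.7% down, so the share that rose was near the background and the share that fell below it. The median log2 fold change was 0.24, against -0.00959 over all tested genes. Without overlap, 14 of the 40 described genes were higher and 5 lower, against 26.7% and 26.2% of all tested genes. The 5 include Tdrd6, which was not tested. Those that rose were Prdm1 and Dazl (specification and RNA regulators), Piwil2, Fkbp6, Stk31 and Tex19.1 (piRNA pathway and transposon control), Hormad1 and Syce1 (meiotic chromosomes), Taf7l and Rpl10l (transcription and translation), and Tex14 (intercellular bridges). Those that fell were Piwil1, Tdrd1, Tdrd5 and Syce2. The days share no libraries, but their calls come from the same fit to all libraries, with a shared estimate of the spread. Tex19.1 and Prdm1 rose on both, Tdrd1 and Syce2 fell on both, and Fkbp6 and Syce1 fell on day 2 and rose on day 2.5.

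**Figure D3:**
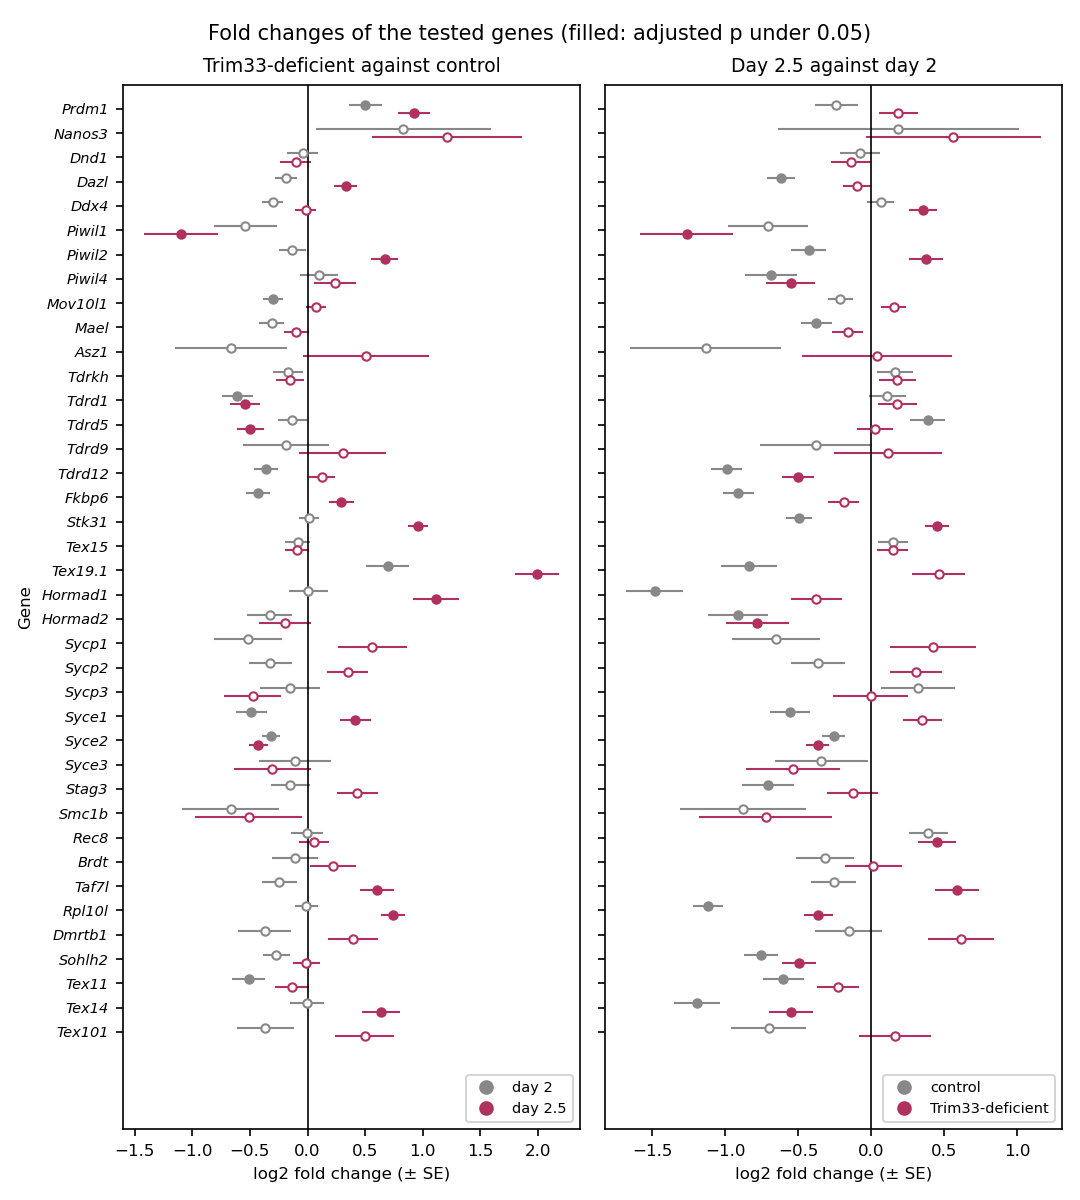
Log2 fold change (points, bars are SE, filled where the adjusted p is under 0.05) of the 39 tested genes: left, Trim33-deficient against control on day 2 and day 2.5; right, the change from day 2 to day 2.5 within each genotype. On the left 33 day 2 points lie below 0 and 24 day 2.5 points above it; on the right 31 control points lie below 0.

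Of the day 2.5 calls, 11 of 15 held under every alternative run on them. Dazl missed the threshold without day 2.5 Trim33-deficient replicate 1 or 2 (adjusted p up to 0.0549), and Syce1 without those or without control replicate 2 (up to 0.103). Piwil1 missed it when control replicate 2 or 3, or else Trim33-deficient replicate 3, of day 2.5 was removed (up to 0.0657). Fkbp6 was the least stable: it missed the threshold under 9 of 21 alternatives, with DESeq2, with upper-quartile factors, on the compared libraries alone, without the 3 libraries that stood apart, and without day 2 Trim33-deficient replicate 2 or 3, day 2.5 control replicate 2 or 3, or day 2.5 Trim33-deficient replicate 3 (adjusted p up to 0.247).

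Prdm1, the zinc-finger repressor that specifies primordial germ cells and also acts in other lineages, was the specification factor that rose. Its levels in day 2 control libraries were 11.7, 17.6 and 15.3 CPM, and in day 2 Trim33-deficient libraries 20.6, 22.1 and 20.4 CPM. On day 2.5 they were 11.4, 15.5 and 11.3 CPM in control and 26.2, 24.7 and 21.1 CPM in Trim33-deficient bodies. The groups did not overlap on either day. The log2 fold change was 0.50 ± 0.14 (SE, n = 3 each) on day 2 (edgeR adjusted p = 0.0373) and 0.92 ± 0.14 on day 2.5 (edgeR adjusted p = 0.000114). Its day 2 call was lost without any day 2 library other than control replicate 2, or without day 2.5 Trim33-deficient replicate 2 (adjusted p up to 0.126).

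Nanos3, needed for survival of primordial germ cells, had too few reads to be judged. Its counts were 3, 2 and 6 in day 2 control and 14, 4 and 3 in day 2 Trim33-deficient libraries, then 8, 2 and 4 in day 2.5 control and 13, 12 and 9 in day 2.5 Trim33-deficient libraries. A count of 3, taken as the floor, corresponds to 0.179 to 0.318 CPM, for counting error only. The day 2.5 groups did not overlap, but the test did not pass (log2 1.21 ± 0.65, edgeR adjusted p = 0.149). Dnd1, an RNA-binding protein that protects germ cell transcripts, lay between 8.73 and 13.6 CPM in all libraries and passed in no comparison. It shares 138 exon bases with Wdr55 on the opposite strand.

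Dazl and Ddx4, RNA regulators of later germ cells, were both measurable. Dazl stood at 19.5, 19.6 and 19.5 CPM in day 2 control and 16.4, 17.1 and 17.8 CPM in day 2 Trim33-deficient libraries, a difference that did not pass (log2 -0.19 ± 0.09). On day 2.5 the order was the opposite, with 12.1, 12.6 and 13.5 CPM in control and 17, 17.1 and 14.1 CPM in Trim33-deficient libraries (0.33 ± 0.10, edgeR adjusted p = 0.0115). Ddx4, the Vasa helicase, stood at 49.6, 49.3 and 49.3 CPM in day 2 control and 35.4, 37.1 and 46.8 CPM in day 2 Trim33-deficient libraries. The groups did not overlap, and the difference narrowly missed the threshold (-0.30 ± 0.09, edgeR adjusted p = 0.0519), which it passed under 7 of the alternatives. On day 2.5 the Ddx4 groups overlapped, at 50.3 to 53.1 and 45.5 to 55.0 CPM.

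The 3 PIWI proteins, which carry piRNAs, differed from each other. Piwil2, the MILI protein, stood at 16.1, 19.4 and 18.4 CPM in day 2.5 control and 34.1, 28.2 and 23.5 CPM in day 2.5 Trim33-deficient libraries. Every Trim33-deficient library was above every control (log2 0.67 ± 0.12, edgeR adjusted p = 0.00028), while on day 2 the groups overlapped, at 23.0 to 25.8 and 21.3 to 23.0 CPM. Piwil1, the MIWI protein, stood at 1.71, 4.26 and 3.71 CPM in day 2.5 control and 1.89, 1.68 and 0.952 CPM in Trim33-deficient libraries, so control replicate 1 lay within the Trim33-deficient range. The fall was 1.09 ± 0.32 on the log2 scale (edgeR adjusted p = 0.0124). Piwil4, the MIWI2 protein, was at 2.43 to 3.34 CPM in control and 2.93 to 3.49 CPM in Trim33-deficient bodies on day 2.5 and did not pass (0.24 ± 0.18). In GENCODE M21 it shares 118 exon bases with Gm10706 on the opposite strand, and the strand setting of the counting is unknown.

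Tudor-domain proteins, the scaffolds of piRNA granules, included Tdrd1 and Tdrd5, whose falls held under every alternative run on them. Tdrd1 stood at 13.5, 12.5 and 13.6 CPM in day 2 control and 7.64, 7.94 and 10.1 CPM in day 2 Trim33-deficient libraries. On day 2.5 it stood at 14.6, 15.9 and 12.3 CPM in control and 9.82, 10.5 and 8.99 CPM in Trim33-deficient libraries. No library of one group reached the other on either day. Tdrd1 fell by 0.61 ± 0.13 on the log2 scale on day 2 (edgeR adjusted p = 0.0108) and by 0.54 ± 0.13 on day 2.5 (edgeR adjusted p = 0.00296), and the interaction was 0.07 ± 0.18. Tdrd5 was at 17.2, 18.9 and 17.8 CPM in day 2.5 control and 14.5, 11.4 and 12.3 CPM in Trim33-deficient libraries, with no overlap (-0.50 ± 0.12, edgeR adjusted p = 0.00345). On day 2 its groups overlapped, at 12.3 to 15.8 and 11 to 14 CPM. Tdrd5 shares 176 exon bases with 4930518J20Rik on the opposite strand, so its count may include that gene's reads.

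Tdrd12, a helicase with Tudor domains, changed more with time than with genotype. It stood at 46.8, 61.3 and 61.9 CPM in day 2 control and 45.0, 44.2 and 43.2 CPM in day 2 Trim33-deficient libraries (log2 -0.36 ± 0.10, edgeR adjusted p = 0.038). By day 2.5 it was at 24.7, 29.9 and 31.1 CPM in control and 29.6, 29.8 and 33.7 CPM in Trim33-deficient bodies. Its day 2 call was lost without any day 2 library other than control replicate 1, without day 2.5 Trim33-deficient replicate 2, without the 3 libraries that stood apart and on the compared libraries alone (adjusted p up to 0.166). Tdrkh, a mitochondrial Tudor protein that shares 340 exon bases with Oaz3 on the opposite strand, and Tdrd9, a helicase, passed in no comparison. Tdrd6 was not tested and lay between 0.0625 and 0.944 CPM.

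Among other piRNA factors, Mov10l1, the helicase that feeds precursor transcripts into the pathway, fell by 0.30 ± 0.09 on day 2 (edgeR adjusted p = 0.0385), from 34, 32.0 and 34.6 CPM to 30.9, 24.3 and 27.2 CPM. That call was lost on leaving out, from day 2, control replicate 1 or 3 or one of Trim33-deficient replicates 2 and 3, or, from day 2.5, control replicate 3 or Trim33-deficient replicate 2, and on the compared libraries alone (adjusted p up to 0.175). Mael, a nuage protein, Asz1, a mitochondrial factor of the pathway, and Tex15, which acts in piRNA-directed silencing, did not pass on either day. Asz1 was low, at 0.188 to 1.04 CPM. Mael stood at 20.9 to 28.0 CPM in all 6 day 2.5 libraries and Tex15 at 53.0 to 68.4 CPM.

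Fkbp6, a co-chaperone of piRNA loading, was one of the 2 genes that crossed over. On day 2 it stood at 30.3, 29.5 and 30.2 CPM in control and 22.1, 22.2 and 22.7 CPM in Trim33-deficient libraries, with no overlap (log2 -0.43 ± 0.10, edgeR adjusted p = 0.0183; lost without control replicate 3 or Trim33-deficient replicate 1 or 2, up to 0.0667). On day 2.5 it stood at 18.0, 13.9 and 15.9 CPM in control and 18.3, 17.4 and 22.9 CPM in Trim33-deficient libraries, and the groups overlapped (0.29 ± 0.11, edgeR adjusted p = 0.0388). That day 2.5 call was kept under only 12 of 21 alternatives (adjusted p up to 0.247), so the crossing depends on the processing. The difference between the days passed the interaction test (0.72 ± 0.15, edgeR adjusted p = 0.0179).

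Tex19.1, a mammalian protein that restrains retrotransposons in germ cells, placenta and pluripotent cells, showed the largest response. It stood at 155, 111 and 154 CPM in day 2 control and 256, 209 and 215 CPM in day 2 Trim33-deficient libraries. On day 2.5 the control libraries were at 100, 58.3 and 75.1 CPM and the Trim33-deficient libraries at 310, 297 and 327 CPM. The groups did not overlap on either day. The rise was 3.98-fold on day 2.5 (log2 1.99 ± 0.19, edgeR adjusted p = 4.08e-05). On day 2 it was 0.69 ± 0.19 on the log2 scale (edgeR adjusted p = 0.0459), close to the threshold, and this call was lost without any single day 2 library, without day 2.5 control replicate 3 or any day 2.5 Trim33-deficient library, with upper-quartile factors and with no low-count filter (adjusted p up to 0.15). Reads shared with its paralogue Tex19.2 may be divided between the 2 genes in a way that the sources used here do not describe.

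Stk31, a Tudor-domain kinase of spermatogonia, had close levels in both genotypes on day 2 and separate ones on day 2.5. It stood at 25.9, 25.4 and 26.4 CPM in day 2 control and 26.2, 24.3 and 27.9 CPM in day 2 Trim33-deficient libraries, a difference of 0.01 ± 0.09 on the log2 scale. On day 2.5 it was at 16.5, 20.5 and 18.3 CPM in control and 37.2, 35.6 and 34.3 CPM in Trim33-deficient libraries. The day 2.5 groups lay far apart (0.96 ± 0.09, edgeR adjusted p = 9.54e-07), and the interaction passed (0.94 ± 0.12, edgeR adjusted p = 0.0017) under all 20 alternatives run on it.

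Among proteins of the meiotic chromosome axis, Hormad1 passed for genotype on day 2.5 and its relative Hormad2 did not pass for genotype on either day. Hormad1 stood at 6.97, 8.58 and 7.16 CPM in day 2 control and 8.06, 7.69 and 7.19 CPM in day 2 Trim33-deficient libraries. On day 2.5 it stood at 2.30, 3.20 and 2.71 CPM in control and 7.42, 5.85 and 4.46 CPM in Trim33-deficient libraries, a 2.17-fold rise (log2 1.12 ± 0.20, edgeR adjusted p = 0.000343). The Trim33-deficient libraries of day 2.5 thus ranged from near the day 2 level to well below it, yet all lay above the controls. Hormad2 on day 2.5 was at 3.20 to 4.16 CPM in control and 2.33 to 4.10 CPM in Trim33-deficient libraries (-0.20 ± 0.22).

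The central element proteins of the synaptonemal complex, Syce1, Syce2 and Syce3, went different ways. Syce1 stood at 14.6, 12.1 and 15.3 CPM in day 2 control and 10.5, 8.81 and 10.7 CPM in day 2 Trim33-deficient libraries (log2 -0.49 ± 0.14, edgeR adjusted p = 0.0321). On day 2.5 it stood at 9.52, 8.35 and 10.5 CPM in control and 12.7, 14.3 and 11.1 CPM in Trim33-deficient libraries (0.42 ± 0.13, edgeR adjusted p = 0.0206), and the interaction was 0.90 ± 0.19 (edgeR adjusted p = 0.0181). Both orders were without overlap. The day 2 call of Syce1 was lost on the compared libraries alone and without any day 2 library other than control replicate 2 (adjusted p up to 0.136).

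Syce2 fell on both days. It stood at 85.4, 101 and 93.2 CPM in day 2 control and 71.7, 75.0 and 77.6 CPM in day 2 Trim33-deficient libraries, then at 66.8, 82.9 and 84.4 CPM in day 2.5 control and 58.6, 57.8 and 57.7 CPM in day 2.5 Trim33-deficient libraries. The falls were 0.32 ± 0.08 on the log2 scale on day 2 (edgeR adjusted p = 0.0222) and 0.43 ± 0.08 on day 2.5 (edgeR adjusted p = 0.000609), and the groups did not overlap on either day. The day 2 call was lost without control replicate 2 or 3, Trim33-deficient replicate 1 or 2, or all 3 libraries that stood apart (adjusted p up to 0.0904). Syce3, at 1.02 to 4.02 CPM, passed in no comparison.

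The lateral element and transverse filament proteins Sycp1, Sycp2 and Sycp3 and the meiotic cohesins Stag3, Smc1b and Rec8 did not pass for genotype on either day. Several of them were high in the control libraries numbered 2, both of which also had high sums of the hypoxia and glycolysis genes. Smc1b stood at 11.7, 26.1 and 12.5 CPM in day 2 control and 4.99, 15.2 and 8.00 CPM in day 2.5 control libraries. Sycp3 stood at 20.3, 34.8 and 20.7 CPM and at 24.3, 41.3 and 30.0 CPM in the same libraries, and Stag3 at 24.7, 41.4 and 31.9 CPM and at 15.5, 24.4 and 20.7 CPM. The hypoxia and glycolysis sums were 8900, 12600 and 9230 CPM and then 8700, 11600 and 9760 CPM. Their part in these differences was not tested. On day 2.5 Sycp2 stood at 4.66, 4.62 and 5.1 CPM in control and 6.33, 6.14 and 5.89 CPM in Trim33-deficient libraries. Without overlap, Sycp2 and Stag3 were higher (log2 0.35 ± 0.18 and 0.43 ± 0.18) and Sycp3 lower (-0.48 ± 0.25), as were 26.7% and 26.2% of all tested genes. For Sycp1, Smc1b and Rec8 the groups overlapped. Without the 3 libraries that stood apart, Stag3 rose (log2 0.58, edgeR adjusted p = 0.000544) and Sycp3 fell (-0.26, edgeR adjusted p = 0.0472) on day 2.5. Sycp3 shares 660 exon bases with Chpt1 on the opposite strand in GENCODE M21, so its reads may include that gene's.

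Taf7l and Rpl10l, germ cell versions of general factors, rose on day 2.5. Taf7l, a TFIID subunit, stood at 7.48, 6.84 and 6.86 CPM in day 2.5 control and 10.8, 11.4 and 10.1 CPM in Trim33-deficient libraries (log2 0.60 ± 0.15, edgeR adjusted p = 0.004). On day 2 its groups overlapped, at 6.81 to 10 and 5.73 to 7.75 CPM. Rpl10l, an intronless copy of the ribosomal protein gene Rpl10, stood at 23.6, 18.7 and 21.4 CPM in day 2.5 control and 37.4, 35.0 and 34.8 CPM in Trim33-deficient libraries (0.74 ± 0.11, edgeR adjusted p = 5.09e-05). Its similarity to Rpl10 makes its count uncertain. Brdt, a testis bromodomain protein, Dmrtb1, a factor of spermatogonia, and Sohlh2, a helix-loop-helix factor of early germ cells, did not pass for genotype on either day.

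Tex14, a protein of the bridges between germ cells, stood at 5.32, 8.00 and 8.37 CPM in day 2.5 control and 12.1, 10.8 and 10.8 CPM in Trim33-deficient libraries. The groups did not overlap (log2 0.64 ± 0.16, edgeR adjusted p = 0.005). On day 2 they overlapped, at 14.8 to 17.6 and 14.4 to 19.9 CPM. Tex11 fell on day 2, from 12.5, 11.5 and 10.7 CPM to 7.85, 8.75 and 7.68 CPM (-0.51 ± 0.14, edgeR adjusted p = 0.0311), a call lost without any single day 2 library and without the 3 libraries that stood apart (adjusted p up to 0.104). Tex101, a surface glycoprotein of germ cells, passed in no comparison, at 0.80 to 1.65 CPM.

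**Figure D4:**
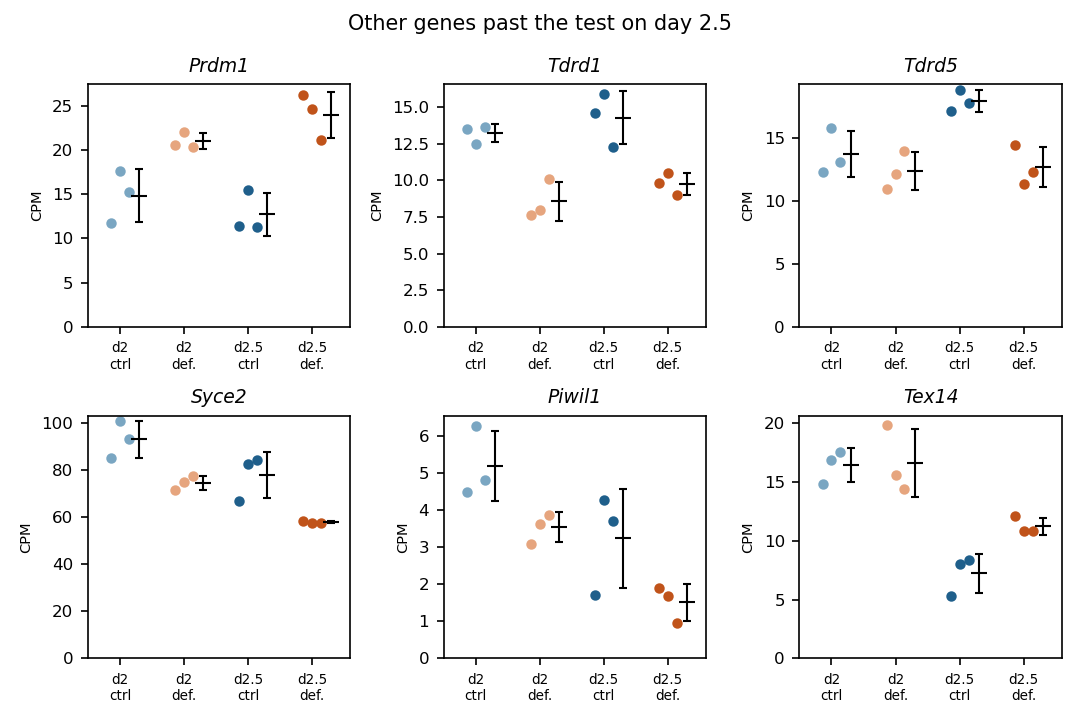
Level in CPM (axis from 0) of Prdm1, Tdrd1, Tdrd5, Syce2, Piwil1 and Tex14 in each library (points, by group) with the mean and SD of 3 libraries (bars). Tdrd1 and Syce2 are lower in Trim33-deficient bodies on both days, and Prdm1 is higher on both.

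Between the days, many of these genes were lower in control bodies on the later one. From day 2 to day 2.5, 17 of 39 fell, 1 rose and 21 did not pass, or 43.6% and 2.56%, where 16.1% of all tested genes passed, 7.91% down and 8.20% up. Without overlap between the days, 23 of the 40 described genes were lower and 3 higher, against 15% and 16.2% of all tested genes. The 3 include the untested Tdrd6. The median log2 fold change was -0.43, against -0.00246 over all tested genes. The number that fell was 10 without day 2 control replicate 3, 13 to 18 without any other single library, and 13 to 17 under the remaining alternatives. Hormad1 fell by 1.48 ± 0.20, Tex14 by 1.19 ± 0.16, Rpl10l by 1.12 ± 0.10, Tdrd12 by 0.99 ± 0.11 and Fkbp6 by 0.91 ± 0.11 on the log2 scale, and each held under all alternatives. Sohlh2, at 22.0, 26.8 and 27.5 CPM on day 2, stood at 13.5, 15.4 and 16.4 CPM on day 2.5 (-0.75 ± 0.12, edgeR adjusted p = 0.000573).

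Other genes that fell with time in control bodies were Dazl, Hormad2, Stk31, Tex19.1, Tex11, Mael, Piwil2, Piwil4, Syce1, Syce2 and Stag3. Of these, Dazl, Hormad2, Stk31 and Tex11 held under every alternative, while each of the other 7 lost its call without day 2 control replicate 3, and all but Syce1 under further alternatives as well. The 1 that rose was Tdrd5 (0.39 ± 0.12, edgeR adjusted p = 0.0388), and that count was 0 without day 2 control replicate 1 or 3, day 2 Trim33-deficient replicate 2, or day 2.5 control replicate 2 or 3, and 2 without day 2 control replicate 2 or day 2.5 control replicate 1.

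In Trim33-deficient bodies the change with time was split. There 8 of 39 fell, 5 rose and 26 did not pass, or 20.5% and 12.8%, where 16.0% of all tested genes passed, 6.93% down and 9.09% up. Without overlap, 8 of the 40 described genes were lower and 9 higher, against 19.3% and 19.4% of all tested genes. The 9 include the untested Tdrd6. The median log2 fold change was 0.02, against -0.0044 over all tested genes. Hormad2, Tex14, Piwil1, Piwil4, Tdrd12, Syce2, Rpl10l and Sohlh2 fell, and Ddx4, Stk31, Piwil2, Rec8 and Taf7l rose. Sohlh2 fell by 0.49 ± 0.12 and Tdrd12 by 0.50 ± 0.11, while Stk31 rose by 0.45 ± 0.08 (edgeR adjusted p = 0.00194). Rec8, a meiotic cohesin subunit, stood at 15.2, 17.6 and 16.8 CPM on day 2 and 23.4, 23.6 and 21.2 CPM on day 2.5 in Trim33-deficient bodies (0.45 ± 0.13, edgeR adjusted p = 0.0303), and in control bodies at 14.3, 19.9 and 15.8 and then 17.7, 25.5 and 22.7 CPM (0.39 ± 0.13, edgeR adjusted p = 0.0602). Within that genotype, the number that fell was 4 without replicate 1 or 2 of day 2 or replicate 3 of day 2.5, and 5 without replicate 2 of day 2.5. The number that rose was 3 without day 2 Trim33-deficient replicate 1 or 3, 2 without day 2 replicate 2 or day 2.5 replicate 1, and 1 without day 2.5 replicate 2 of that genotype. Without the 3 libraries that stood apart 10 rose and 8 fell, where 13.5% and 12% of all tested genes did so.

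The interaction test asked directly whether the response to Trim33 loss differed between the days. It uses the same libraries as the comparisons above. Of 39 genes 9 passed with a higher value on day 2.5 (23.1%) and 0 with a lower one, where 4.01% of all tested genes passed, 2.77% higher and 1.24% lower. At an unadjusted p under 0.05 by edgeR the numbers were 18 and 0, against 11.4% and 9.49% of all tested genes. DESeq2 also passed 9 and 0, against 4.01% and 2.18% of the genes it tested. The 9 were Tex19.1, Hormad1, Stk31, Syce1, Taf7l, Piwil2, Rpl10l, Fkbp6 and Dazl, with differences of 0.52 to 1.30 on the log2 scale. The changes with time behind them share these libraries and are given side by side. Stk31 changed by -0.50 in control and 0.45 in Trim33-deficient bodies, Tex19.1 by -0.84 and 0.46, and Syce1 by -0.56 and 0.35 on the log2 scale. Hormad1 changed by -1.48 and -0.38, Rpl10l by -1.12 and -0.36, and Taf7l by -0.26 and 0.59.

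The interaction calls became fewer when some libraries were left out, as did those over all genes, but not with others. Their number was 2 when day 2 control replicate 3 or, in turn, day 2 Trim33-deficient replicate 2 was left out (0.679% and 0.756% of all tested genes then passed higher), 3 without day 2 Trim33-deficient replicate 3, and 4 without day 2.5 control replicate 3 or day 2.5 Trim33-deficient replicate 1 or 2. The fold differences moved less, between 0.91 and 1.28 for Hormad1 and between 0.81 and 1.00 for Syce1 over all alternatives. Stk31 and Rpl10l passed under every alternative. Without the 3 libraries that stood apart all 9 passed, with Tex14 and Mov10l1 besides, and Sycp3 passed in the other direction (-0.55, edgeR adjusted p = 0.0222). Calls over all genes also became more numerous there, with 7.7% passing higher and 5.73% lower.

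**Figure D5:**
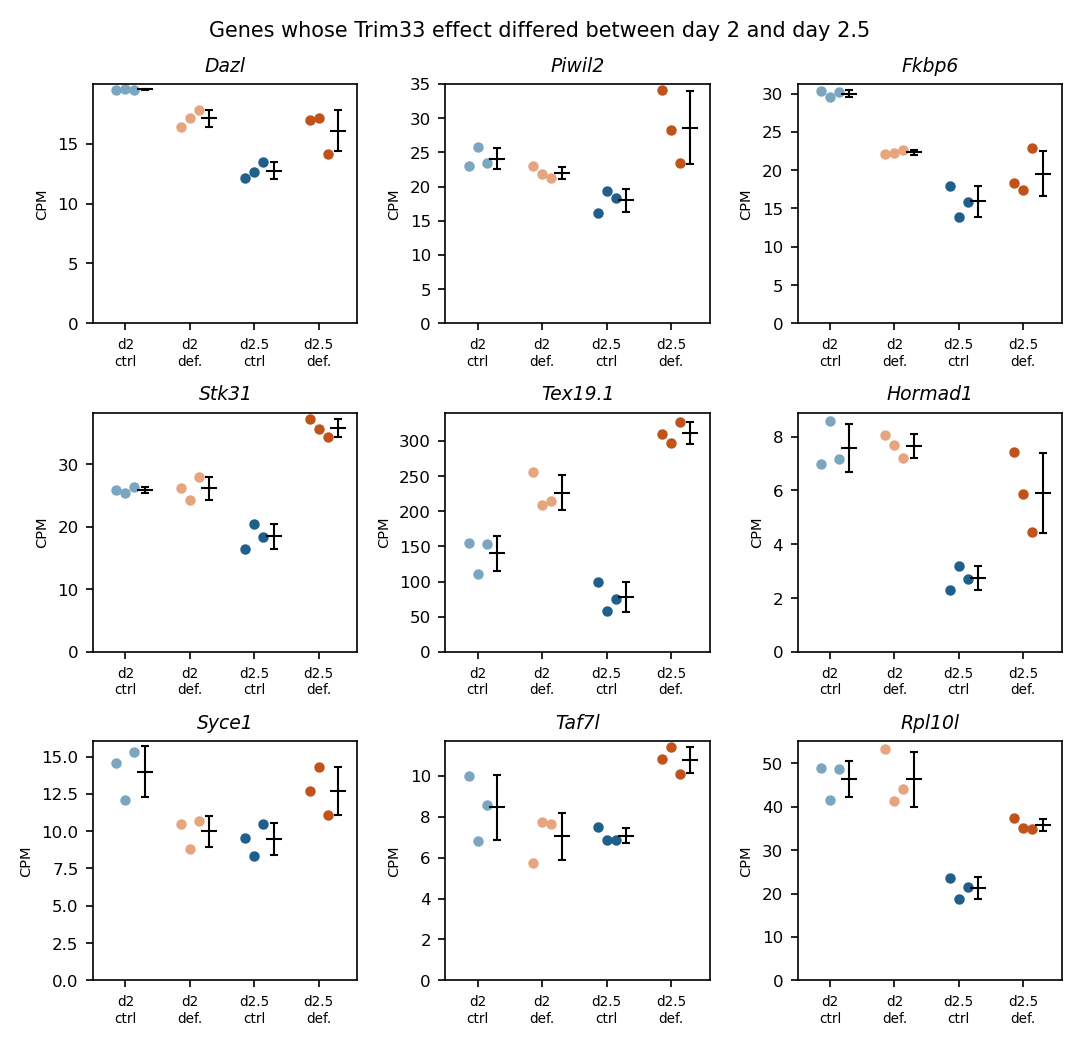
Level in CPM (axis from 0) of the 9 genes that passed the interaction test, in each library (points, by group), with the mean and SD of 3 libraries (bars). In Stk31, Tex19.1 and Hormad1 the day 2.5 control points lie below the day 2 control points, and the day 2.5 Trim33-deficient points lie above the day 2.5 controls.

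Other genes of the same pathways, from lists that hold none of the 42, gave mixed counts on day 2.5, to be read against the 22.0% of all tested genes that rose and the 20.7% that fell. Of 14 further piRNA genes 6 rose, 2 fell and 6 did not pass. Mybl1, a transcription factor that drives piRNA precursors, stood at 19.8, 21.1 and 17.4 CPM in control and 34.7, 36.6 and 31.8 CPM in Trim33-deficient libraries (log2 0.83 ± 0.09), and Morc1, a transposon silencing factor, at 29.3, 21.1 and 25.2 and at 66.8, 57.8 and 54.7 CPM (1.24 ± 0.14). Pld6, a mitochondrial endonuclease of the pathway, fell by 0.90 ± 0.17. Of 25 further meiosis genes 6 rose and 4 fell, while 15 missed the threshold. The number that fell was 1 without day 2.5 Trim33-deficient replicate 1 or 2 and 2 without day 2.5 control replicate 3. Mei4, needed for meiotic DNA breaks, and Hsf2bp, a recombination factor, rose by 0.92 ± 0.17 and 0.62 ± 0.12 on the log2 scale. Spata22, another recombination factor, was low, at 0.178 to 0.459 CPM in control and 0.893 to 1.32 CPM in Trim33-deficient libraries.

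Early germ cell genes, many of them also genes of pluripotency, gave 15 of 29 that rose and 9 that fell on day 2.5, with 5 that fell without day 2.5 Trim33-deficient replicate 1 or 2. Tfap2c, a partner of Prdm1 in germ cell specification and also a trophoblast factor, stood at 4.99, 5.77 and 3.84 CPM in control and 20.6, 21.1 and 20.7 CPM in Trim33-deficient libraries. Dppa3, a maternal factor expressed in primordial germ cells, stood at 7.74, 7.11 and 6.99 CPM and at 15.2, 17.6 and 16.7 CPM (log2 1.18 ± 0.11), and Klf2 rose by 1.92 ± 0.17. Of those that fell, the 3 with the smallest adjusted p, named after their values were seen, were Kdm1a, Fgf8 and Nanog. Nanog, a pluripotency factor, stood at 163, 209 and 175 CPM in control and 68.7, 77.1 and 81.5 CPM in Trim33-deficient libraries (-1.26 ± 0.15), Fgf8 fell by 1.69 ± 0.22 and Kdm1a by 0.35 ± 0.04. Among 31 genes listed for repression of germline genes and for DNA methylation, 12 were lower and 7 higher past the threshold, and 12 missed it. That list also holds Tet1 and Tet2, so not every gene in it is a repressor. Dnmt3b, a de novo DNA methyltransferase, stood at 3450, 2820 and 3370 CPM in control and 1640, 1880 and 2130 CPM in Trim33-deficient libraries (-0.77 ± 0.10). Smchd1, a chromosomal silencing protein, fell by 0.37 ± 0.05, and Atf7ip, a partner of SETDB1, rose by 0.45 ± 0.06.

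Markers of other cell states moved with the same groups. On day 2.5, 21 naive pluripotency genes summed to 1580 to 1680 CPM in control and 2180 to 2290 CPM in Trim33-deficient libraries, and 18 rose and 1 fell. The 17 primed epiblast genes summed to 5600 to 6450 and 3970 to 4780 CPM, with 10 that fell and 4 that rose. The 18 two-cell-like markers, named after the embryo stage at which they are transcribed, summed to 95.1 to 160 and 335 to 377 CPM, all 15 tested rose, and 3 had no count in any library of a group. The 15 primitive and visceral endoderm genes, mostly Apoe, summed to 421 to 565 and 917 to 1120 CPM, with 4 that rose and 2 that fell of 10 tested. The 11 fibroblast genes summed to 36.2 to 45.1 and 23.4 to 26.2 CPM (1 rose and 3 fell of 5 tested). The 10 gonad somatic genes summed to 40.6 to 47.7 and 65.9 to 80.8 CPM, mostly Wt1 (26.7 to 34.4 and 45.7 to 58.4 CPM), and 2 of 5 tested rose. On day 2 the naive sums were 1870 to 1910 and 1960 to 2300 CPM. The part of these states in the germline gene differences was not tested.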

How the data were processed

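The authors deposited 1 table of read counts per gene for each of the 12 libraries. The submitters' processing notes name STAR, HTSeq, DESeq and the build mm9, without roles or versions, and the strand setting is not given in the sources used here. Summary rows that name no gene were left out (the no-feature row equalled 55.94 to 60.54% of a library's total). In day 2.5 Trim33-deficient replicate 1, 27 gene names had become dates and were restored by row position. Gene counts of 10066338 to 16529627 per library set the precision, and a floor of 3 counts covers counting error only.

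Under R 4.3.3, edgeR 4.0.16 fitted 4 group means to all 12 libraries by robust quasi-likelihood (8 residual degrees of freedom), after filterByExpr on the groups and TMM scaling. P-values were adjusted by Benjamini-Hochberg over 14356 genes, with a threshold of 0.05. SE is the size of the log2 fold change over the square root of F. Genotypes were compared within each day, then day 2.5 against day 2 in each genotype, and their interaction. Alternatives were RLE and upper-quartile factors, DESeq2 1.42.0, other filters, a replicate block, left-out libraries, no ribosomal RNA rows, and the compared libraries alone. The members and lists were chosen with earlier results of these data known. Every member with a mean of at least 0.5 CPM in a group was described, and from each other list up to 3 genes with the smallest adjusted p on day 2.5 were named. Exon lengths came from GENCODE M21, and promoters from RefSeq by symbol.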

Additional observations from a re-analysis of the deposited data

Results flagged for a closer look

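For 9 of the germline genes the response to Trim33 loss on day 2.5 differed from that on day 2 by the interaction test itself (edgeR, adjusted over all tested genes, 3 libraries per group). The difference, day 2.5 minus day 2 on the log2 scale, was 1.30 for Tex19.1 (adjusted p = 0.032), 1.11 for Hormad1 (0.0305), 0.94 for Stk31 (0.0017) and 0.90 for Syce1 (0.0181). It was 0.84 for Taf7l (0.0381), 0.80 for Piwil2 (0.0168), 0.76 for Rpl10l (0.0117), 0.72 for Fkbp6 (0.0179) and 0.52 for Dazl (0.0424). Over all tested genes 2.77% passed higher. Stk31 and Rpl10l kept the call under all 20 alternatives, Piwil2 under 17, and Fkbp6 and Syce1 under 16. Hormad1 kept it under 14, Tex19.1 and Taf7l under 12, and Dazl under 9.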

How the results depend on the processing

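No germline gene that passed changed the sign of its fold change under any alternative run on it, while the balance of counts did turn over time in Trim33-deficient bodies, where 5 rose and 8 fell: 5 rose and 4 fell without day 2.5 Trim33-deficient replicate 3. With upper-quartile factors or no low-count filter 1 gene rose on day 2. Without the 3 libraries that stood apart 4 fell on day 2, 1 passed the interaction downwards, and over time 3 rose in control and 10 in Trim33-deficient bodies. In the same order, 4.73%, 5.73%, 8.22% and 13.5% of all tested genes did so in that setting. On the compared libraries alone 4 fell on day 2 and 0 rose over time in control bodies. Leaving out 1 library at a time, day 2 gave 0 to 2 that rose and 1 to 8 that fell, day 2.5 gave 9 to 12 and 3 to 5, and the interaction 2 to 10 and 0. Over time control bodies gave 0 to 2 that rose and 10 to 18 that fell, and Trim33-deficient bodies 1 to 6 and 4 to 8. Of the other lists on day 2.5, meiosis genes that fell ranged from 1 to 5 and early germ cell genes that fell from 5 to 9. The cause was not tested.

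Whether the replicate numbers pair the samples was not settled, and the reported fit does not use them. The deviations of same-numbered libraries from their group means, not the levels themselves, were correlated over the tested genes. For genotype the correlations were -0.0816 to 0.194 on day 2 and -0.0444 to -0.0139 on day 2.5. Over time they were 0.422, 0.513 and 0.0509 for replicates 1, 2 and 3 in control bodies. In Trim33-deficient bodies they were -0.0174 to 0.201. With the replicate block 2 genes in place of 1 rose over time in control bodies, and the other counts stayed within 1.5 times. Depth limits Nanos3, Asz1 and Tdrd6, whose libraries held 1 to 15 counts each.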

Other observations

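Zp3, a zona pellucida glycoprotein of the oocyte, was the 1 gene of the 14 gamete markers with enough counts to be tested. It stood at 2.43, 1.87 and 2.90 CPM in day 2.5 control and 4.95, 9.36 and 12 CPM in day 2.5 Trim33-deficient libraries, with no overlap (log2 1.86 ± 0.27, edgeR adjusted p = 7.65e-05). On day 2 it stood at 4.8, 4.18 and 4.8 CPM in control and 5.41, 5.63 and 5.72 CPM in Trim33-deficient libraries. Those groups did not overlap either, but the difference did not pass (0.29 ± 0.26). From day 2 to day 2.5 Zp3 fell in control bodies (-0.91 ± 0.29, edgeR adjusted p = 0.045). In Trim33-deficient bodies its change with time did not pass (0.66 ± 0.24).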
